A study of Mus musculus with 6 samples.

Results

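Ide, the gene of insulin-degrading enzyme, and 9 genes of the insulin-like growth factor (IGF) system were followed through the ventral lumbar spinal cord of mice with a model of amyotrophic lateral sclerosis. The 10 genes were chosen by name from a table of 28162 genes, and all 10 passed the filter on low values that left 17480 genes for testing. Ide was picked for its rise after treatment, being 1 of the 4 genes (0.0197% of those with an adjusted p) that the authors' deposited table lists as higher at an adjusted p under 0.05, so its difference is described here without a test. The other members are the ligand gene Igf1, the receptor genes Igf1r, Insr and Igf2r, and the binding protein genes Igfbp2, Igfbp3, Igfbp4, Igfbp5 and Igfbp7, which were taken as a family.

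All 6 samples came from SOD1G93A mice, which carry mutant superoxide dismutase 1. The mice were injected intrathecally, into the fluid around the cord, with an adeno-associated virus (AAV) on postnatal day 74. For 3 samples the virus carried green fluorescent protein (AAV-GFP, the control) and for 3 it carried neuron-derived neurotrophic factor (AAV-NDNF), a secreted protein. Tissue was taken on day 104, and polyadenylated RNA was sequenced, with 1 library per replicate. The labels do not say whether a replicate is 1 animal or a pool. No group without virus or without the SOD1 mutation was analysed here, and the serotype, promoter and target cells of the virus are not stated in the labels. Reads assigned to genes ranged from 15335789 to 20060987 per library. Ndnf, the delivered gene, had 171, 128 and 158 normalized counts in controls 1 to 3. After AAV-NDNF it had 5286, 7077 and 674, above every control and lowest in the third library. Motor neuron markers were measured in all libraries (8 of 8 passed the filter, with summed levels of 9969 to 12070 in AAV-GFP and 10365 to 11665 in AAV-NDNF). Normalized counts are gene reads divided by 1 size factor per library. Log2 fold changes were taken as treated minus control after adding 1 to each value. Errors written with ± are SDs over n = 3 libraries, and SE marks a standard error from the fit.

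The IGF system is a set of secreted signals with a tight extracellular control. IGF-1 and insulin bind the related tyrosine kinase receptors IGF1R and INSR, which act through adaptor proteins on the PI3K, AKT and mTOR kinases and restrain the FOXO transcription factors. IGF2R, also known as the mannose 6-phosphate receptor, takes up IGF-2 for degradation and does not signal as a kinase. IGF binding proteins hold the ligands in the extracellular space, and proteases such as pappalysin release them. IDE is a zinc peptidase that cuts insulin, amyloid beta and other short peptides. In the nervous system IGF-1 is a survival factor for motor neurons and is made by microglia among other cells.

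The active site that gives IDE its class can be read in its coding sequence. IDE belongs to the M16 peptidases, whose zinc-binding motif has the order histidine, any 2 residues, glutamate, histidine, the reverse of that in most zinc peptidases. The motif occurred 1 time in the annotated coding sequence of Ide, which is incomplete at its 5′ end, and of its relatives Nrd1 (nardilysin) and Pitrm1 (the mitochondrial presequence protease), whose values are compared with Ide further on. The coding strand around it, from GENCODE M21 transcripts (mm10), is shown 5′ to 3′ with the 5 motif codons in capitals.
Ide: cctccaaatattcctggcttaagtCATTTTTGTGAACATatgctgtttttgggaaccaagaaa
Nrd1: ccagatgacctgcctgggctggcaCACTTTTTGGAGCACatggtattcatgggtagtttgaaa
Pitrm1: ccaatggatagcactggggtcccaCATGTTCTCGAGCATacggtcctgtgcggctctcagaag
The Ide stretch lies at chr19:37329112-37329174 on the minus strand, in exon 2 of 24 of the annotated transcript, and the Pitrm1 stretch at chr13:6553201-6553263 on the plus strand, in exon 4 of 27.

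Ide was higher in every AAV-NDNF library than in every control. The gene (ENSMUSG00000056999.15) lies on chromosome 19, 37268743 to 37337852 on the minus strand. Its level was 1138, 1238 and 1046 normalized counts in AAV-GFP libraries 1 to 3 and 1795, 1799 and 1715 in AAV-NDNF libraries 1 to 3. The groups did not overlap, with a gap of 1.39-fold between the highest control and the lowest treated library. The mean was 1141 ± 96.3 in controls and 1770 ± 47.0 after AAV-NDNF, a ratio of 1.55 and a log2 fold change of 0.64 (SE 0.11). The 3 AAV-NDNF libraries differed by 1.05-fold from lowest to highest, a coefficient of variation of 2.66%. Counting error alone gives 2.61% at the gene's mean of reads over all 6 libraries. It is smaller in the AAV-NDNF libraries, which held 1566 to 2134 reads of Ide against 979 to 1275 in controls. In controls the coefficient of variation was 8.44%. The third AAV-NDNF library, with the least Ndnf of its group, had an Ide level of 1715, also the lowest of the group.

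Many genes differed by more than Ide. Of 17480 genes tested, 385 had a larger log2 fold change, and the range from the 5th to the 95th percentile of all genes was −0.57 to 0.40. In the authors' deposited table Ide has a log2 fold change of 0.63 (SE 0.12). Over 17 alternatives of scaling, filter, pseudocount, tool, pairing and left-out libraries, the log2 fold change of Ide was between 0.58 and 0.72. Of all genes tested, 4.26% lay higher in every AAV-NDNF library than in every control, 5.50% lay lower, and 9.75% lay apart in either direction, where 1 of the 10 members (Ide) did. Since Ide was picked for this difference, these shares are only its setting.

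**Figure D1:**
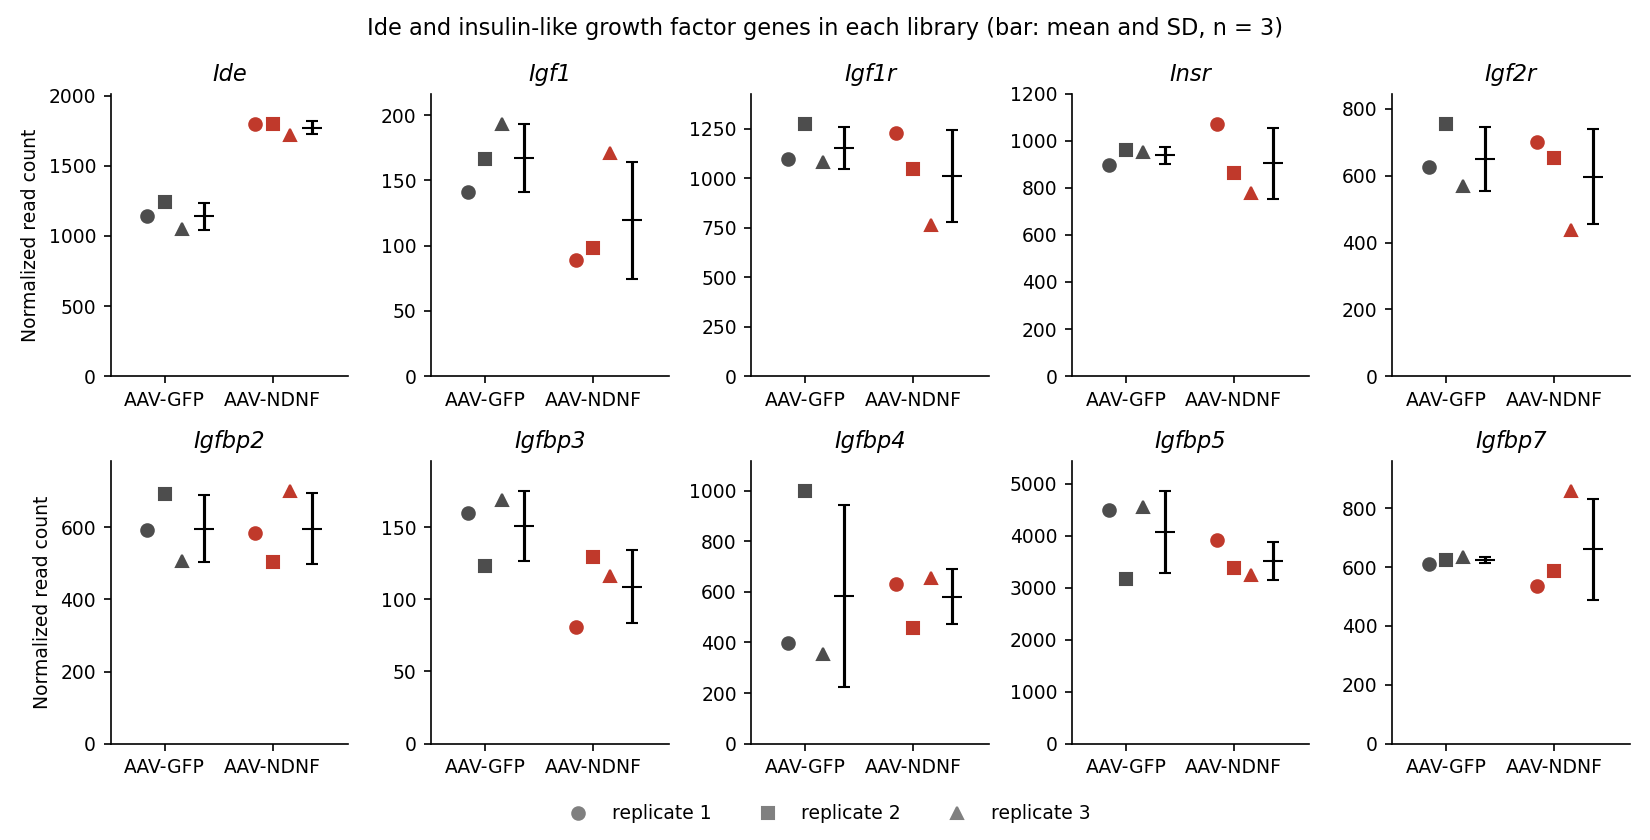
Normalized read count (vertical axis, from 0) of each of the 10 genes in the AAV-GFP and AAV-NDNF libraries. Points are libraries, with a shape per replicate number, and the bar beside each group is the mean with its SD (n = 3). Ide (1046 to 1238 against 1715 to 1799) is the gene whose groups do not overlap, and the other 9 overlap.

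Neuronal markers had higher sums after AAV-NDNF, though none was called, and their values stand here beside those of Ide. All 7 neuron markers had log2 fold changes above 0 (median 0.17). Their summed level, which did not overlap, was 124847 to 126909 in AAV-GFP and 132352 to 149759 in AAV-NDNF. Nefm and Snap25, named outside the rule for genes, made up most of this sum. Syt1, also outside the rule, was 1706, 417 and 1834 in AAV-GFP and 1222, 1375 and 1413 in AAV-NDNF, so its rise rests on AAV-GFP 2. The mean log2 level of the list overlapped between the groups, at 0.00, −0.36 and 0.07 in AAV-GFP and 0.03, 0.13 and 0.13 in AAV-NDNF, relative to the mean of the 6 libraries. Oligodendrocyte markers (3 of 7 above 0, median −0.02) and astrocyte markers (0 of 8 above 0, median −0.11) had medians below 0. The part of cell composition in the level of Ide was not tested.

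Genes next to Ide on the chromosome went either way. Of 15 neighbours listed by name, 12 passed the filter, 6 above and 6 below 0, with a median of 0.03. The nearest on the centromeric side, Marchf5 (a mitochondrial ubiquitin ligase, 46.6 kb away, named March5 in the annotation) and Cpeb3 (a regulator of mRNA translation, 60.1 kb away), both had log2 fold changes of 0.12, with 95% intervals of −0.17 to 0.42 and −0.15 to 0.39. On the other side Kif11, a mitotic kinesin 38.6 kb away, was 28.0 ± 8.96 in controls and 38.3 ± 12.6 after AAV-NDNF (0.43, interval −0.43 to 1.29). Its interval was wide and includes the value of Ide. Hhex, a homeobox factor, was 64.5 ± 20.0 against 42.4 ± 9.51 (−0.57). Exoc6, an exocyst subunit, was 233 ± 48.9 against 271 ± 46.6 (0.22). Its interval of −0.22 to 0.67 also includes the value of Ide. Btaf1, a regulator of TATA-binding protein, was 562 ± 14.3 against 663 ± 109 (0.22). Fgfbp3, a carrier of fibroblast growth factors, was 76.2 ± 4.95 against 77.0 ± 14.0 (0.00). Tnks2 (tankyrase 2) differed by −0.07, Ppp1r3c (a glycogen-targeting phosphatase subunit) by −0.10, Hectd2 by −0.21, Pcgf5 by 0.07 and Rpp30 by −0.11. None of the 12 was called in limma (the smallest adjusted p of the 12 was 0.997). Of the 12, 1 (Ppp1r3c) lay apart between the groups, lower after AAV-NDNF, where 9.75% of all genes tested lay apart in either direction.

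**Figure D2:**
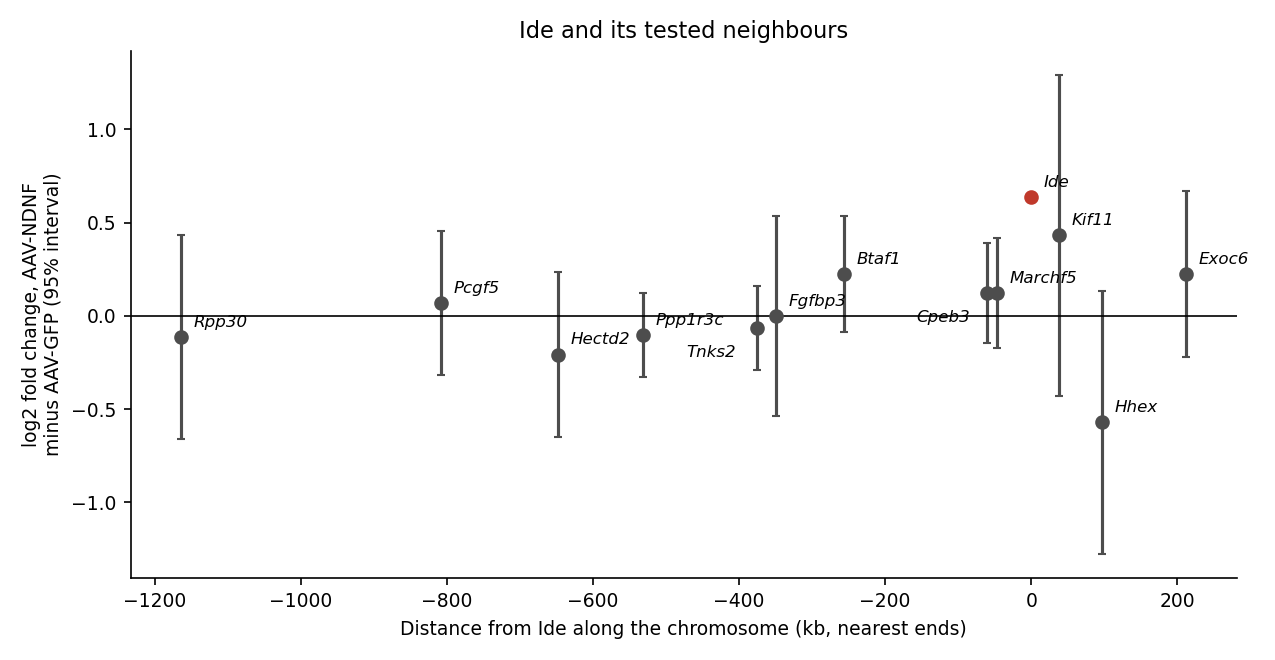
Log2 fold change (vertical axis) of Ide and its 12 tested neighbours against the distance of each from Ide in kb (horizontal axis). Bars are 95% intervals from limma and Ide is drawn as its value alone, at 0.64. Marchf5 and Cpeb3, the closest on the left, are at 0.12, and the intervals of all 12 neighbours include 0.

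Other peptidases listed with Ide were near 0 or went either way. Of the 9 that were tested beside Ide, 5 were above and 4 below 0. The M16 relatives shown above, named outside the rule for genes because of their sequence, were Nrd1 at 2788 in controls and 2863 after AAV-NDNF (0.04, SE 0.11) and Pitrm1 at 794 and 799 (0.01, SE 0.12). Neurolysin (Nln), a peptidase of neurotensin, was lower in every AAV-NDNF library (582 against 477, −0.29, SE 0.13), which limma did not call (adjusted p = 0.997). Mmel1, a neprilysin-like enzyme, was 53.7 against 69.4 (0.40, SE 0.36), Ece1, an endothelin-converting enzyme, 847 against 776.8 (−0.14, SE 0.16) and Ace, the angiotensin-converting enzyme, 435 against 467 (0.12, SE 0.17).

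The ligand of the family, Igf1, was lower in AAV-NDNF libraries 1 and 2 and not in library 3. Igf1 (ENSMUSG00000020053.18, chromosome 10, 87858265 to 87937042, plus strand) stood at 141, 166 and 193 normalized counts in AAV-GFP and at 89.2, 98.0 and 171 in AAV-NDNF. The third AAV-NDNF library lay inside the control range and the other 2 lay below it. The mean was 167 ± 26.1 against 119 ± 44.9, a log2 fold change of −0.53 (SE 0.26, 95% interval −1.10 to 0.04) that did not pass (limma adjusted p = 0.997, exact two-sided permutation p = 0.3, where 3 against 3 libraries allow no p below 0.1). Without AAV-NDNF replicate 3 it was −0.82, still short of the threshold (limma adjusted p = 0.398). The lowest library held 87 reads of Igf1. Counting error at the mean of reads over all 6 libraries is 8.36%, where the AAV-NDNF libraries varied by 37.6%.

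Microglial markers stand beside Igf1. The 8 homeostatic microglia markers and the 14 of disease-associated microglia, the phagocytic state in which microglia are known to raise Igf1, all had log2 fold changes below 0 (medians −0.33 and −0.59). Their summed levels were 16791 to 16902 in AAV-GFP and 12483 to 13950 in AAV-NDNF for the first list, and 70901 to 75671 against 49378 to 62677 for the second. No marker of either list was below the filter. Apoe, named outside the rule for genes, made up most of the second sum, at 45664 to 49692 in AAV-GFP and 31559 to 40747 in AAV-NDNF. In both lists AAV-NDNF 3 was the treated library nearest to the controls, as it was for Igf1. Csf1r, the receptor that marks microglia, was itself lower in every AAV-NDNF library (a mean of 4450 against 3170, not called), which raises treated ratios to it. It is named outside the rule for genes. Per 100 counts of Csf1r, Igf1 was 3.14, 3.66 and 4.48 in AAV-GFP and 2.72, 3.04 and 5.67 in AAV-NDNF, so the groups overlapped with AAV-NDNF 3 highest. In bulk tissue, fewer cells of a type and less RNA per cell cannot be told apart, and the part of microglial content in the level of Igf1 was not tested.

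Other ligands were near the limit of detection. Igf2 was between 0 and 3.38 normalized counts in the 6 libraries and did not pass the filter. Igf2 is named outside the rule for genes. Of 5 choroid plexus markers, named here outside the rule for genes, 2 passed the filter. Both had log2 fold changes above 0 (0.37 and 0.70) and neither was called. Of these, Kl was 39.3, 0 and 25.6 in AAV-GFP and 24.4, 15.8 and 9.86 in AAV-NDNF, so its rise rests on AAV-GFP 2. Those below the filter went the other way at very low levels. Folr1 was 7.14 to 9.77 in AAV-GFP and 0 to 3.29 in AAV-NDNF, and Ttr 1.07 to 5.36 and 0. Kcnj13 was 0.977 to 2.14 and 0 to 1.13. The summed level of the 5 was 43.0 to 77.7 in AAV-GFP and 43.9 to 53.8 in AAV-NDNF. Ins1 and Ins2, the insulin genes, were listed, but the authors' values hold no entry under either name.

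Each of the 3 receptor genes overlapped between groups. Igf1r (ENSMUSG00000005533.10, chromosome 7, 67952827 to 68233668, plus strand) was 1097, 1275 and 1084 in AAV-GFP and 1226, 1049 and 765 in AAV-NDNF. Its log2 fold change was −0.21 (SE 0.16, 95% interval −0.57 to 0.15). Insr (ENSMUSG00000005534.10, chromosome 8, 3122061 to 3279617, minus strand) was 897, 960 and 954 against 1072, 863 and 776.6, a difference of −0.06 (SE 0.13, interval −0.36 to 0.23). Igf2r (ENSMUSG00000023830.14, chromosome 17, 12682406 to 12769664, minus strand) was 627, 755 and 568 against 702, 653 and 437, a difference of −0.14 (SE 0.18, interval −0.54 to 0.26). None passed (limma adjusted p = 0.997 for each). The antisense gene Airn overlaps Igf2r but none of its exons.

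AAV-NDNF 3 was the lowest library for all 3 receptors, and it was also the library in which long transcripts were low, a check chosen after the values were seen. Genes with over 8 kb of annotated exons (2666 genes) had a median of −0.16 in that library relative to the mean of the 6 on the log2 scale, against −0.02 to 0.11 in the others. Genes with under 2 kb (3429 genes) had a median of 0.17 there, against −0.09 to 0.06 in the others. The receptor genes have 16791 (Igf1r), 13746 (Insr) and 9308 (Igf2r) exon bases. Igf1, the other member over 8 kb with 9904 exon bases, did not share the pattern and was 0.31 above its mean in AAV-NDNF 3. Without AAV-NDNF replicate 3 the differences were −0.02 for Igf1r, 0.04 for Insr and 0.07 for Igf2r, so the direction turned for Insr and Igf2r. The part of transcript length in these values was not tested.

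**Figure D3:**
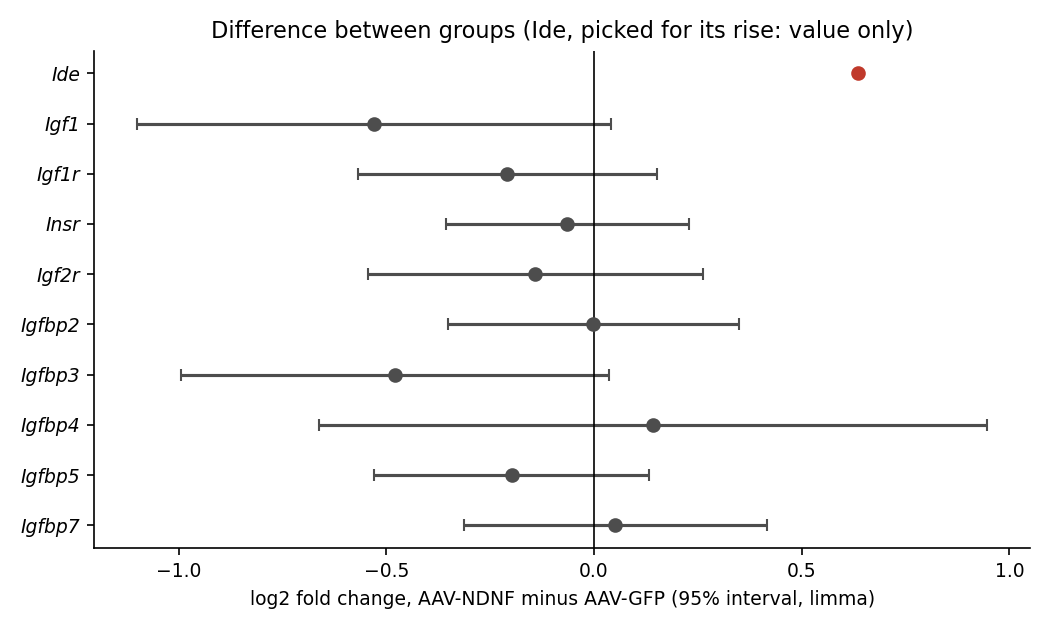
Log2 fold change (horizontal axis) of the 10 genes. Bars are 95% intervals from limma for the 9 genes that were tested, and Ide is drawn as its value alone at 0.64. All 9 intervals include 0, and those of Igf1 (−1.10 to 0.04) and Igfbp3 (−0.995 to 0.04) reach 0 only at their upper end.

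The 5 binding protein genes among the members differed in how far they varied, and none of the 5 separated the groups. Igfbp3 (ENSMUSG00000020427.11, chromosome 11, 7206086 to 7213923, minus strand), the main carrier of IGF in serum, was 160, 123 and 169 in AAV-GFP and 80.7, 130 and 116 in AAV-NDNF. The second control lay within the AAV-NDNF range. The log2 fold change was −0.48 (SE 0.23, 95% interval −0.995 to 0.04, limma adjusted p = 0.997, exact two-sided permutation p = 0.2). The difference was below 0 in all 17 alternatives (−0.68 to −0.28) and was called in none.

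Endothelial markers stand beside Igfbp3, a gene that vessels also express. Their summed levels overlapped between groups, at 5142 to 5678 in AAV-GFP and 4352 to 5673 in AAV-NDNF. Of the 7 genes, 5 were below 0, with a median of −0.11. Among them 1 gene lay lower and 1 higher in every AAV-NDNF library, as did 5.50% and 4.26% of all genes tested. The part of vessel content was not tested.

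Igfbp5, the member with the highest level, and Igfbp4 each had 1 control library that stood far from the other controls. Igfbp5 (ENSMUSG00000026185.8, chromosome 1, 72857932 to 72874884, minus strand) was 4498.5, 3166 and 4552 in AAV-GFP and 3927, 3374 and 3240 in AAV-NDNF. Controls 1 and 3 lay above all other libraries and control 2 below them. The log2 fold change was −0.20 (SE 0.15, interval −0.53 to 0.13, limma adjusted p = 0.997). Igfbp4 (ENSMUSG00000017493.12, chromosome 11, 99041244 to 99054392, plus strand) was at 398, 998 and 354 in AAV-GFP and 632, 457 and 654 in AAV-NDNF. Its control libraries spanned 2.82-fold, the widest range within a group among the 10 genes, and the log2 fold change of 0.14 had an interval of −0.66 to 0.95. On the count scale the group means of Igfbp4 were 583 ± 360 and 581 ± 108.

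Control 2 also stood apart in dorsal horn transcripts. The mean log2 level of 10 dorsal horn neuron markers was −2.01 in AAV-GFP 2, counted from the average of all 6, and the other libraries lay between −0.26 and 1.05, and their summed level was 1254 there against 1967 to 3813 in the others. Oligodendrocyte markers were highest in the same library (summed 711228, against 515378 to 575925 elsewhere). Without AAV-GFP replicate 2, the log2 fold changes were 0.61 for Igfbp4 (limma adjusted p = 0.492), −0.37 for Igfbp5 (adjusted p = 0.65) and −0.62 for Igfbp3 (adjusted p = 0.942), none of them called, with no overlap between groups for these 3 genes. Without that library 19.6% of all tested genes had no overlap. The part of dorsal horn content in these values was not tested.

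Igfbp2 and Igfbp7 had equal or near-equal means. Igfbp2 (ENSMUSG00000039323.18, chromosome 1, 72824503 to 72852474, plus strand), which astrocytes and meningeal cells are known to express, was 592, 692 and 505 in AAV-GFP and 585, 503 and 700 in AAV-NDNF. The log2 fold change was 0.00 with a 95% interval of −0.35 to 0.35. Igfbp7 (ENSMUSG00000036256.13, chromosome 5, 77349240 to 77408041, minus strand), a vascular member that binds IGF weakly, was 612, 625 and 633 in AAV-GFP and 537, 586 and 858 in AAV-NDNF. The controls agreed within 1.04-fold, whereas the AAV-NDNF libraries lay on both sides of them. The difference was 0.05 (interval −0.31 to 0.42). Igfbp7 has 1209 exon bases, the fewest of the 10 genes, and its highest library was AAV-NDNF 3, in which short transcripts were high. Without that library the difference was −0.15 (limma adjusted p = 0.869). Exons of Igfbp7 overlap exons of Polr2b on the opposite strand, so the level of Igfbp7 is uncertain to that extent.

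**Figure D4:**
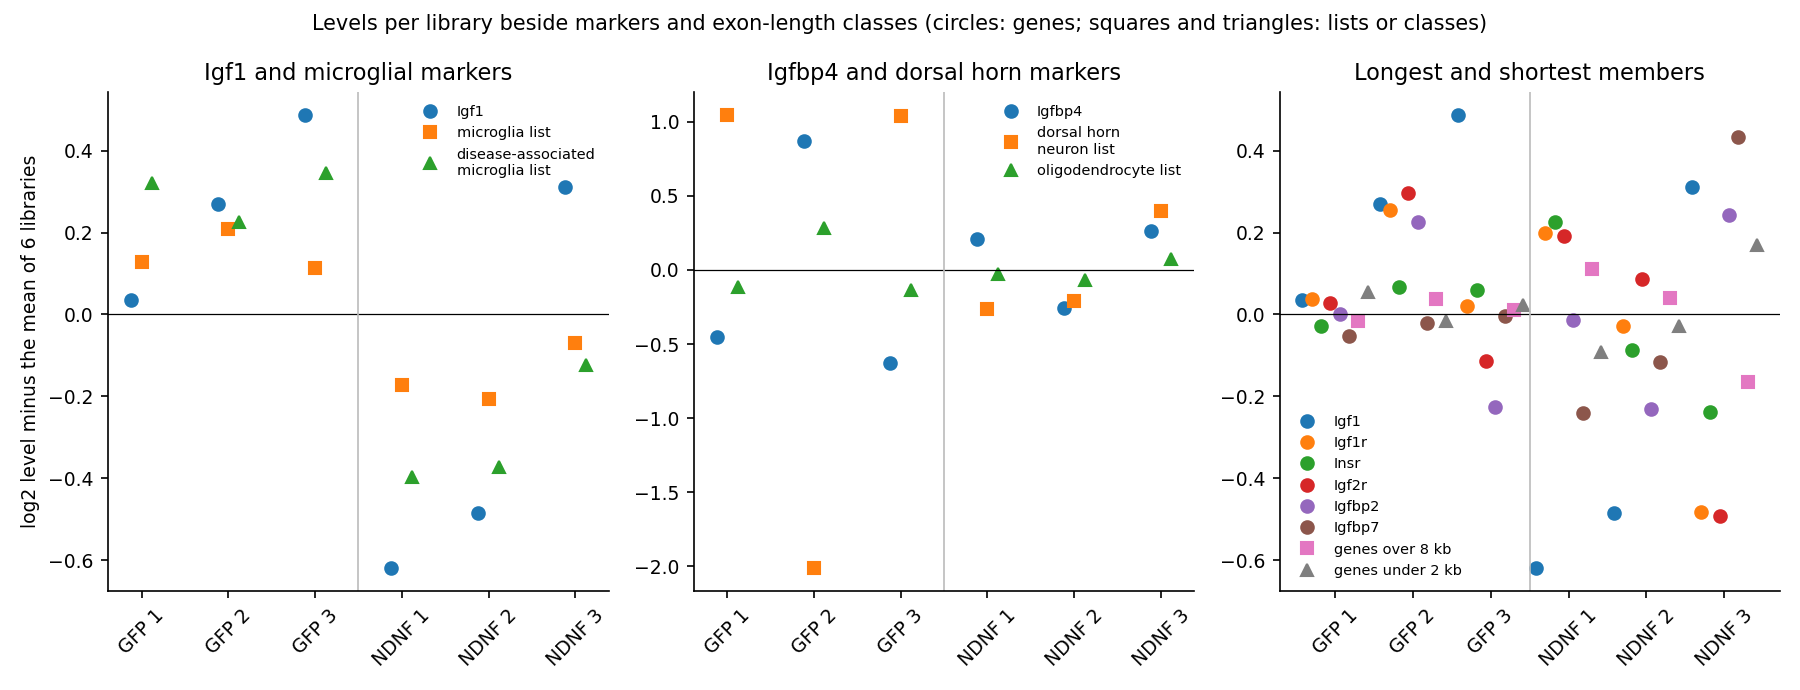
Level per library (vertical axis, log2 minus the mean of the 6 libraries) of members beside the marker lists and exon-length classes described in the text. Left, Igf1 and the microglial lists are lowest in AAV-NDNF 1 and 2. Middle, Igfbp4 is highest (0.87) where dorsal horn markers are lowest (−2.01), in AAV-GFP 2. Right, of the members over 8 kb, Igf1r, Insr and Igf2r are lowest in AAV-NDNF 3 and Igf1 is above its mean there (0.31), and both members under 2 kb, Igfbp2 and Igfbp7, are highest there. All genes over 8 kb have a median of −0.16 and genes under 2 kb of 0.17 in that library.

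Across the 9 genes other than Ide, limma called 0, at adjusted p under 0.05, and 0 had an unadjusted p under 0.05. The background over all 17480 genes was 0 genes called (0%) and 818 with an unadjusted p under 0.05 (4.68%), of which 3.53% of genes were lower and 1.15% higher. Tests by edgeR and DESeq2 on whole reads recovered from the normalized values also called 0 of the 9, and over the whole table edgeR called 0 genes and DESeq2 55. The authors' deposited table gives an adjusted p of 0.999891 for each of the 9, where 0.266% of its genes with an adjusted p are under 0.05. With Ide, 3 of the 10 members were above 0 and 7 below, with a median of −0.10, where the median of all genes tested was 0.00083.

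Levels were compared between genes per length. Normalized counts per kb of annotated exons, averaged over the 6 libraries, were 632 for Igfbp5, 531 for Igfbp7, 323 for Igfbp2, 194 for Ide, 132 for Igfbp4, 67.0 for Igf2r, 66.9 for Insr, 64.5 for Igf1r, 41.4 for Igfbp3 and 14.4 for Igf1. Binding protein transcripts thus made up 4 of the 5 highest levels, and the ligand was the lowest. The ranges over libraries of Igfbp5 (527 to 758) and Igfbp7 (444 to 709) overlapped, as did those of Ide (139 to 240) and Igfbp4 (80.1 to 226), those of the 3 receptors (45.5 to 81.2 in all), and those of Igf1r and Igfbp3 (25.8 to 53.9). Igfbp4 and Igf2r overlapped narrowly. The ranges of Igfbp7 and Igfbp2, of Igfbp2 and Ide, and of Igfbp3 and Igf1 (9.002 to 19.5) did not overlap. In controls alone Ide was at 152 ± 12.8 per kb and after AAV-NDNF at 236 ± 6.26, and by the group means it was between Igfbp2 and Igfbp4 in both.

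The rest of the pathway was read from lists of 74 gene names that are not members, of which 67 were present and passed the filter. None was called in limma over all genes, 2 had an unadjusted p under 0.05 (2.99%, against 4.68% of all genes) and 7 lay apart between groups (10.4%, against 9.75%). Among these 7, Igfbp6, Grb2 and Akt1 (the last named outside the rule for genes) lay higher after AAV-NDNF. Nln, Pik3cd, Eif4ebp1 and Klf15 lay lower. Of the 67, 32 were above and 35 below 0, with a median of 0.00. Both genes under 0.05 were lower after AAV-NDNF, Nln as given above and Pik3cd, the leukocyte catalytic subunit of PI3K, with a control mean of 430 and a treated mean of 330 (−0.39, SE 0.14, limma adjusted p = 0.929).

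Receptor adaptors were evenly spread. Of 16 adaptors, 7 were above and 9 below 0 (median −0.02), from −0.29 to 0.17. The members with the smallest p were Sh2b1, an adaptor that promotes insulin signalling, at 1183 in controls and 1083 after AAV-NDNF (−0.12), Shc3 at 320 and 276 (−0.29), Grb2, which links receptors to RAS, at 2537 and 2728 (0.11) and Sh2b2 at 208 and 173 (−0.23). Irs1 and Irs2, the main substrates of both receptors and named here outside the rule for genes, were at 413 and 387 (−0.10) and at 1745 and 1707 (−0.03).

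Kinases and transcription factors further down also went either way. Of 26 genes from PI3K to mTOR and FOXO, 14 were above and 12 below 0 (median 0.02). After Pik3cd, the smallest p belonged to Eif4ebp1, the translation repressor that mTOR inactivates, at 66.4 in controls and 45.3 after AAV-NDNF (−0.57, SE 0.28, no overlap), Inppl1, a lipid phosphatase that opposes PI3K, at 1140 and 970 (−0.24, SE 0.15) and Rps6kb1, the S6 kinase, at 890 and 979 (0.14, SE 0.11). Of 10 genes that FOXO factors are known to activate, 2 were above and 8 below 0 (median −0.03). They included Klf15 at 609 and 524 (−0.22, lower in every AAV-NDNF library), Txnip at 828 and 766 (−0.12), Ccng2 at 401 and 438 (0.12) and Sesn1 at 748 and 699 (−0.09).

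Proteases of the binding proteins and the inhibitors of these proteases went either way. Of 5 such genes, 3 were above and 2 below 0. Pappa, pappalysin 1, was 355 in controls and 370 after AAV-NDNF (0.05), and Pappa2 was 21.9 and 22.7 (0.11). The pappalysin inhibitors Stc1 and Stc2 were 17.8 and 20.7 (0.30) and 69.7 and 59.9 (−0.28). Among binding proteins outside the members, Igfbp6 was 14.3, 15.6 and 10.7 in AAV-GFP and 15.98, 20.3 and 20.8 in AAV-NDNF, a separation at low level (0.47, SE 0.44), and Igfbpl1 was 35.5 and 21.6 on average (−0.44, SE 0.54).

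**Figure D5:**
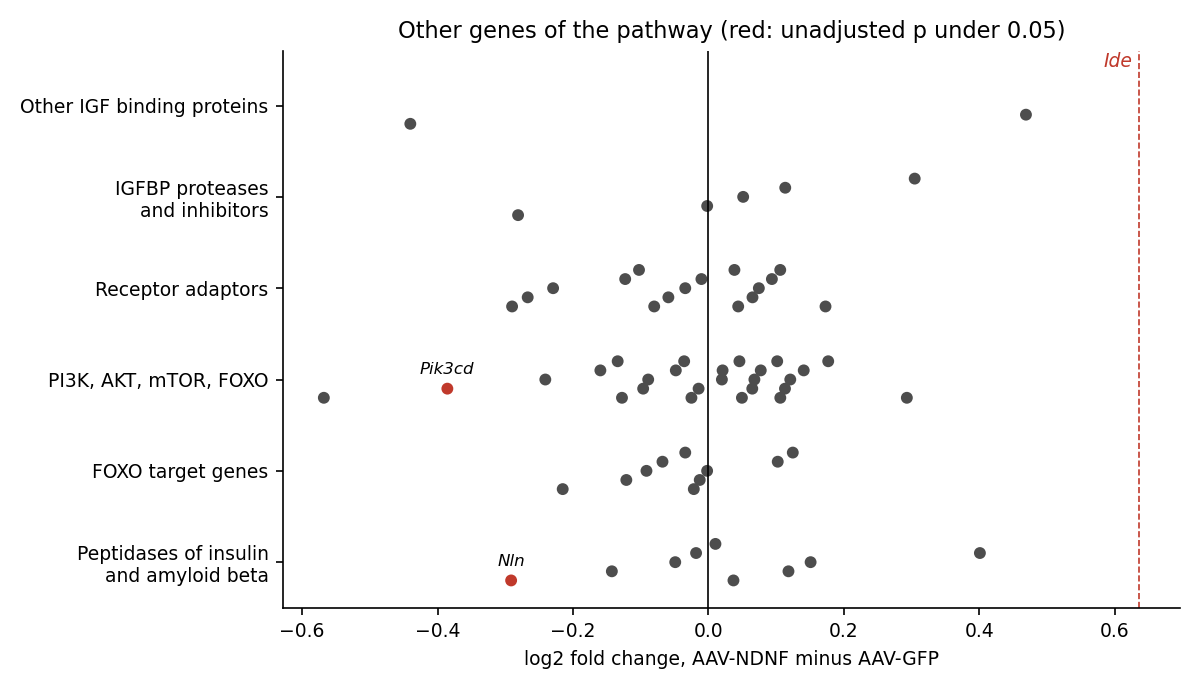
Log2 fold change (horizontal axis) of the tested pathway genes that are not members, 1 point per gene, by list. Red points have an unadjusted p under 0.05 (Pik3cd and Nln), and the dashed line marks Ide at 0.64, above every point drawn.

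The genes whose levels over the 6 libraries were most like those of Ide were looked for among 12409 genes with a mean of at least 100 normalized counts. The highest Pearson correlations of log2 values were with Amigo1, a neuronal adhesion protein (r = 0.992), Maneal (0.983), Ift88, a cilium transport protein (0.978), Prpf18, a splicing factor (0.973) and C9orf72 (0.963). These are the largest of many values over 6 points that share a group difference, and carry no test. All 5 were higher in every AAV-NDNF library, by less than Ide: Amigo1 by 0.22, Maneal by 0.27, Ift88 by 0.40, Prpf18 by 0.11 and C9orf72 by 0.09 on the log2 scale. Ift88 was 278, 322 and 284 in AAV-GFP and 387, 389 and 389 in AAV-NDNF. Genes most like Igf1 by the same measure included Cars2 (0.987), Slc46a1 (0.983), Dda1 (0.977) and Sla (0.974). In these 4, AAV-NDNF 1 and 2 were the lowest libraries, as they were for Igf1. Sla was 145, 148 and 160 in AAV-GFP and 101, 101 and 145 in AAV-NDNF.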

How the data were processed

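Values come from 1 deposited table of 6 libraries. The authors made it with cutadapt, HISAT2, HTSeq and DESeq2 on mm10, per the submitters' processing notes; the sources used here do not give versions, annotation or strand. Its library columns are a normalized signal, gene reads that the authors divided by 1 size factor per library (100% of values were whole multiples of 1 step per library, tolerance 0.001), so whole reads were recovered. The authors also deposited log2 fold changes, a test score and p-values.

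The main test was limma 3.58.1 (R 4.3.3, trend and robust, two-sided, Benjamini-Hochberg over 17480 genes) on log2(value + 1) where 3 or more libraries reached 10 normalized counts; adjusted p under 0.05 was called. Alternatives used edgeR 4.0.16, DESeq2 1.42.0 and voom; limma, edgeR and DESeq2 were tested on simulated data. Members and lists were chosen with earlier results of these data known. Named genes are the members, Ndnf, tested neighbours, up to 4 per pathway list by smallest p and the 5 most like Ide or Igf1, of which 1 is not reported here; exceptions are marked. Exon lengths come from GENCODE M21 (17201 of 17480 genes matched) as the union of annotated exons. Depth was 15335789 to 20060987 reads. Replicates are labelled biological; nothing more of their origin is given, so p-values measure the spread between these libraries.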

Additional observations from a re-analysis of the deposited data

How the results depend on the processing

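Of 17 alternatives, none called any of the 9 tested members, and Igf1, Igfbp3 and Igfbp5 kept their direction in all. So did Ide, but it was picked for its rise and its groups do not overlap. No left-out library could turn it, so its direction carries no support. The number of genes called over the whole table, 0 in the main test, was 3 with no filter, 55 with DESeq2, 165 with voom and quality weights, 6 with the replicate block, 0 to 43 when leaving out single libraries and 257 without AAV-GFP 2 and AAV-NDNF 3 together, an alternative chosen after seeing the data. With that pair left out 7 members had no overlap between groups (42.5% of all genes). Leaving out single libraries gave 1 to 4 members without overlap, where 15.1% to 26.9% of all genes had none. Fewer libraries leave fewer values to overlap. With the replicate block the smallest adjusted p of limma was 0.00698. Deviations of same-numbered libraries correlated at −0.09, 0.05 and 0.08, and not every library correlated best with its own number, so the numbers were not taken to pair them.

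Igf1r, Insr, Igf2r, Igfbp2, Igfbp4 and Igfbp7 turned direction in 1 or more alternatives. Igfbp4 was −0.0099 with edgeR and −0.0043 with DESeq2, and −0.13 to 0.61 when leaving out single libraries. With voom Igf2r was 0.028 and Igfbp7 −0.048. Leaving out single libraries gave ranges of −0.12 to 0.11 for Igfbp2, −0.19 to 0.038 for Insr, −0.27 to 0.069 for Igf2r and −0.15 to 0.18 for Igfbp7. Without AAV-GFP 2 and AAV-NDNF 3, Igf1r was 0.056, Insr 0.056, Igf2r 0.18 and Igfbp7 −0.15. The cause was not tested.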
